A study of Homo sapiens with 17 samples.

Results

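The 10 genes described here act in making and loading the peptides that MHC class I molecules show at the cell surface, together with UBD, which encodes the ubiquitin-like modifier FAT10. They are UBD; the catalytic subunits PSMB8, PSMB9 and PSMB10 of the immunoproteasome; PSME1 and PSME2 of the proteasome activator PA28; the peptide transporter subunits TAP1 and TAP2; TAPBP (tapasin); and the class I light chain B2M. They were picked by gene symbol from the 26457 genes of the deposited expression table, and all 10 were among the 14800 genes tested, which had a mean of at least 2.5 normalized reads over the 8 libraries. Apart from UBD, each of these genes had reads in every library. UBD reached that mean through its 16 h libraries alone, so it had to differ between the times to be tested at all.

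Proteasomes cut proteins into short peptides. When PSMB8, PSMB9 and PSMB10 are made, they take the places of the constitutive catalytic subunits PSMB5, PSMB6 and PSMB7 in newly assembled particles, and PA28 docks on the ends of the particle. TAP1 and TAP2 form the pump that carries peptides into the endoplasmic reticulum, tapasin bridges this pump to the empty class I molecule and helps select its peptide, and B2M is the invariant chain of the finished molecule. FAT10 is conjugated to proteins and directs them to the proteasome. These genes are known targets of interferon-γ, and several also respond to TNF-α through NFκB.

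The cells were of the human colon cancer line SW480, whose p53 is mutant (mutp53), with stable constructs that make a short hairpin RNA when doxycycline is given. In every group cells were kept in puromycin and induced with doxycycline, so the controls carried a hairpin too, against LacZ, while the mutp53-depleted cells carried one against p53. Both lines were harvested untreated (0 h) or 16 h after TNF-α (12.5 ng/ml) was added, and each of the 4 groups had 2 biological replicates (A and B), giving 8 poly(A) mRNA-seq libraries. A single control line and a single depleted line were used, so the hairpin cannot be told apart from other differences between the lines. GRO-seq and ChIP-seq samples of the study were not analysed here.

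The libraries held between 6108488 and 13809578 reads on genes, and replicate A was the deeper one in each group. The 7 epithelial markers summed to between 42850 and 71614 normalized reads per library and were all detected. The 12 leukocyte markers summed to between 47.0 and 117.2, with 4 to 8 of them at 0 in a library and PTPRC, CD3D, CD2 and MS4A1 at 0 in all. By group the leukocyte sum ran from 47.0 to 61.0 and from 72.5 to 84.1 in control cells at 0 h and 16 h, and from 75.4 to 77.1 and from 115.7 to 117.2 in depleted cells, where CD68 and ITGAM, which rose with TNF-α in both lines, made up most of it. CD14 went the other way with TNF-α, at -1.21 on the log2 scale in control cells (adjusted p = 0.037, limma). It stood at -1.09 in depleted cells, which did not pass. LYZ, at -0.37 and -1.01, and CD79A, at 1.46 and 0.32, passed the test with TNF-α in neither line. The epithelial sum was lowest in depleted cells at 16 h, where KRT19 in contrast had its highest mean (10089). At an adjusted p under 0.05 (limma), 2 of the 7 rose and 3 fell with TNF-α in control cells (all genes 11.1% and 15.2%). In depleted cells 1 rose and 4 fell (all genes 9.8% and 16.9%). CDH1 fell in both lines (-2.51 and -2.15 on the log2 scale). ELF3 rose in control cells (0.79) and fell in depleted cells (-1.26). The part of both marker sets in the results below was not tested.

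The sequences around the start sites of these genes are shown because all members rose with TNF-α in control cells and many share short elements there. All 10 members matched the promoter windows of RefSeq (build GRCh38.p14, 250 bases before to 50 after each start site), with 12 windows in all since PSMB8 and TAP1 have 2 start sites each. Both strands were searched. The core of an interferon regulatory factor (IRF) element, GAAANNGAAA, was present in windows of 8 members, PSMB8, PSMB10, PSME1, PSME2, TAP1, TAP2, TAPBP and B2M, and in 3.57% of all 35116 promoter windows. The κB consensus, the element that NFκB binds, was present for 4 members, UBD, TAP1, TAPBP and B2M, and in 5.91% of all windows. The GAS element, TTCNNNGAA, was found for PSMB8 and TAP1 and in 7.66% of all windows. No κB match overlapped an IRF match, whereas the 2 IRF matches found for each of TAP1, TAPBP and B2M overlapped each other. A match is a run of letters and not a shown binding site. The IRF match of PSME1 begins 5 bases after its start site, and that of PSMB8 begins 4 bases before a start site and runs past it. The first set of lines gives 1 IRF match per gene with 10 bases on either side, in the direction of the gene. The match is in capitals, also where it is read on the opposite strand (PSMB8, PSME1 and TAP1). For TAP1, TAPBP and B2M it is the match farther upstream, and the rest of the overlapping match is left in small letters.
TAP2 (chr6:32838778-32838807, minus strand): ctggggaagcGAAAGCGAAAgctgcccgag
PSMB10 (chr16:67936852-67936881, minus strand): gggtaaaggcGAAAGCGAAAgcaggaagta
PSME2 (chr14:24146619-24146648, minus strand): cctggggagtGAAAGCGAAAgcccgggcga
TAPBP (chr6:33314079-33314108, minus strand): ccctttggagGAAAGTGAAAgtgaaaggag
B2M (chr15:44711363-44711392, plus strand): gagactctaaGAAAAGGAAActgaaaacgg
PSMB8 (chr6:32844032-32844061, minus strand): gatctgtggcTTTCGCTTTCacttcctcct
PSME1 (chr14:24136189-24136218, plus strand): gccctaccgcTTTCGCTTTCccttcgcggt
TAP1 (chr6:32853819-32853848, minus strand): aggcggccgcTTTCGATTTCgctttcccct
The same 10 bases, GAAAGCGAAA, were present for TAP2, PSMB10 and PSME2. On the opposite strand they were present for PSMB8, PSME1 and, in the match nearer its start site, TAP1. The second set gives the κB matches in the same way, read on the opposite strand for B2M and for the second of TAP1, which begins 22 bases after its first start site.
UBD (chr6:29559766-29559795, minus strand): aatccaggcaGGGGATTTCCaactcaactc
TAPBP (chr6:33314115-33314144, minus strand): taaccagagcGGGGATTTCCaccgcccctc
TAP1 (chr6:32853757-32853786, minus strand): gcctgttcctGGGACTTTCCgagagccccg
TAP1, second match (chr6:32853663-32853692, minus strand): accggggcgcGGAGAGTCCCaggcccggcc
B2M (chr15:44711382-44711411, plus strand): actgaaaacgGGAAAGTCCCtctctctaac
UBD and TAPBP held identical κB letters, which began 53 bases before the start site of UBD and 56 before that of TAPBP.

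The 250 bases before the start sites of UBD and TAP1 are given in full, with κB and IRF matches in capitals, because these 2 genes had the lowest log2 differences of the members after mutp53 depletion at 16 h. In the window of UBD the κB match stood alone, while TAP1 held both elements, its upstream κB match beginning 72 bases and the IRF matches 134 and 128 bases before its start.
UBD (chr6:29559733-29559982, minus strand): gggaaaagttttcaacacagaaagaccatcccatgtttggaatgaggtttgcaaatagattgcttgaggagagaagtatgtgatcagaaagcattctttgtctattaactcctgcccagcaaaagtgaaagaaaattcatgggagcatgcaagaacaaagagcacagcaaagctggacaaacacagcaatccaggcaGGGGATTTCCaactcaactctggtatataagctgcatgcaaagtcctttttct
TAP1 (chr6:32853705-32853954, minus strand): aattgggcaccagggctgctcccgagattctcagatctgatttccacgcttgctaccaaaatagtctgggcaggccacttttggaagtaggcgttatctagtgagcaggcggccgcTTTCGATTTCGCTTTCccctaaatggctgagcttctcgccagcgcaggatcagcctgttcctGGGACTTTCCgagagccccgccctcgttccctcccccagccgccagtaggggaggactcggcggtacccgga
TAP1 and PSMB9 are read away from each other, and their first start sites lie 488 bases apart in RefSeq. The IRF matches and the upstream κB match of TAP1 lie between these starts but outside the window of PSMB9, in which neither an IRF core nor a κB consensus was found.

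TNF-α raised the whole group in control cells. All 10 members were higher at 16 h than at 0 h at an adjusted p under 0.05 (limma on log2(value + 1), adjusted over all genes tested), as were 11.1% of all genes, and 5 of them, UBD, PSMB9, PSMB10, TAP1 and TAPBP, also rose at least 2-fold, as did 2.97% of all genes. The median change of the members was 1.00 on the log2 scale, against -0.05 over all genes tested. In bulk RNA, more or fewer expressing cells and more or less mRNA per cell cannot be told apart. In mutp53-depleted cells 9 members rose, against 9.8% of all genes, with PSME1 the exception, but 2 of them, UBD and TAPBP, rose at least 2-fold (1.86% of all genes), and the median change was 0.59 (all genes, -0.06). UBD adds no weight to these counts in either line, as it entered the test only through its 16 h libraries. Leaving out 1 library moved TAP1 in control cells to 0.84 (without control 16 h A), B2M in control cells to 1.08 (without control 16 h B) and TAPBP in depleted cells to 0.96 (without mutp53-depleted 16 h A), across the 2-fold line, and raised depleted TAP1 to 1.00 (without 0 h A) and depleted PSMB9 to 1.01 (without 0 h B or 16 h A); each of these still passed the adjusted p. The 10 members that passed in control cells became 9 without control 0 h B or 16 h B, when PSME2 did not, and the 9 in depleted cells became 7 or 8 without any 1 of the depleted libraries, when PSMB8, PSME2 or both did not. PSMB9 in depleted cells also stood at 1.01 by both edgeR tests and DESeq2.

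After depletion of mutp53, counts of changed members at 0 h were near the shares over all genes, and at 16 h most members were lower. At 0 h PSMB8 and PSMB9 were higher in depleted cells (2 of 10, all genes 27.3%) and PSME2, TAP1 and TAPBP lower (3 of 10, all genes 25.2%), with none past 2-fold (all genes 5.89% higher and 9.55% lower), although TAP1 reached the 2-fold line without mutp53-depleted 0 h A. The 5 members that passed at 0 h became 3 without control 0 h A or without mutp53-depleted 0 h B, when PSMB8 and PSME2 missed the adjusted p. At 16 h no member was higher (all genes 24.9%) and 7 were lower, UBD, PSMB10, PSME1, PSME2, TAP1, TAPBP and B2M (all genes 26.5%). The 7 became 6 without control 16 h B (PSME2, 0.14) and 5 without mutp53-depleted 16 h A (PSME2, 0.15, and PSMB10, 0.061). UBD and TAP1 were at least 2-fold lower (all genes 10.2%). Without control 16 h A, TAP1 stood at -0.84, while TAPBP passed the 2-fold line at -1.06 without control 16 h B and at -1.01 without mutp53-depleted 16 h A. Because the control 0 h libraries serve both the TNF-α comparison in control cells and the depletion comparison at 0 h, and the other groups are shared in the same way, these comparisons are not independent of each other.

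The difference between the TNF-α responses of both lines was tested as an interaction. It was below 0 at an adjusted p under 0.05 for UBD, PSMB10 and TAPBP (3 of 10, all genes 2.21%) and above 0 for none (all genes 0.655%). UBD adds no weight to this count either, for the reason given above. The fitted median over the members was -0.41 on the log2 scale, against -0.03 over all genes tested. The other 7 members missed the threshold with fitted values below 0, and their 95% intervals ran, for example, from -1.36 to -0.30 for PSMB9 (adjusted p = 0.097, limma) and from -0.33 to 0.30 for PSME2 (adjusted p = 0.98, limma).

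**Figure D1:**
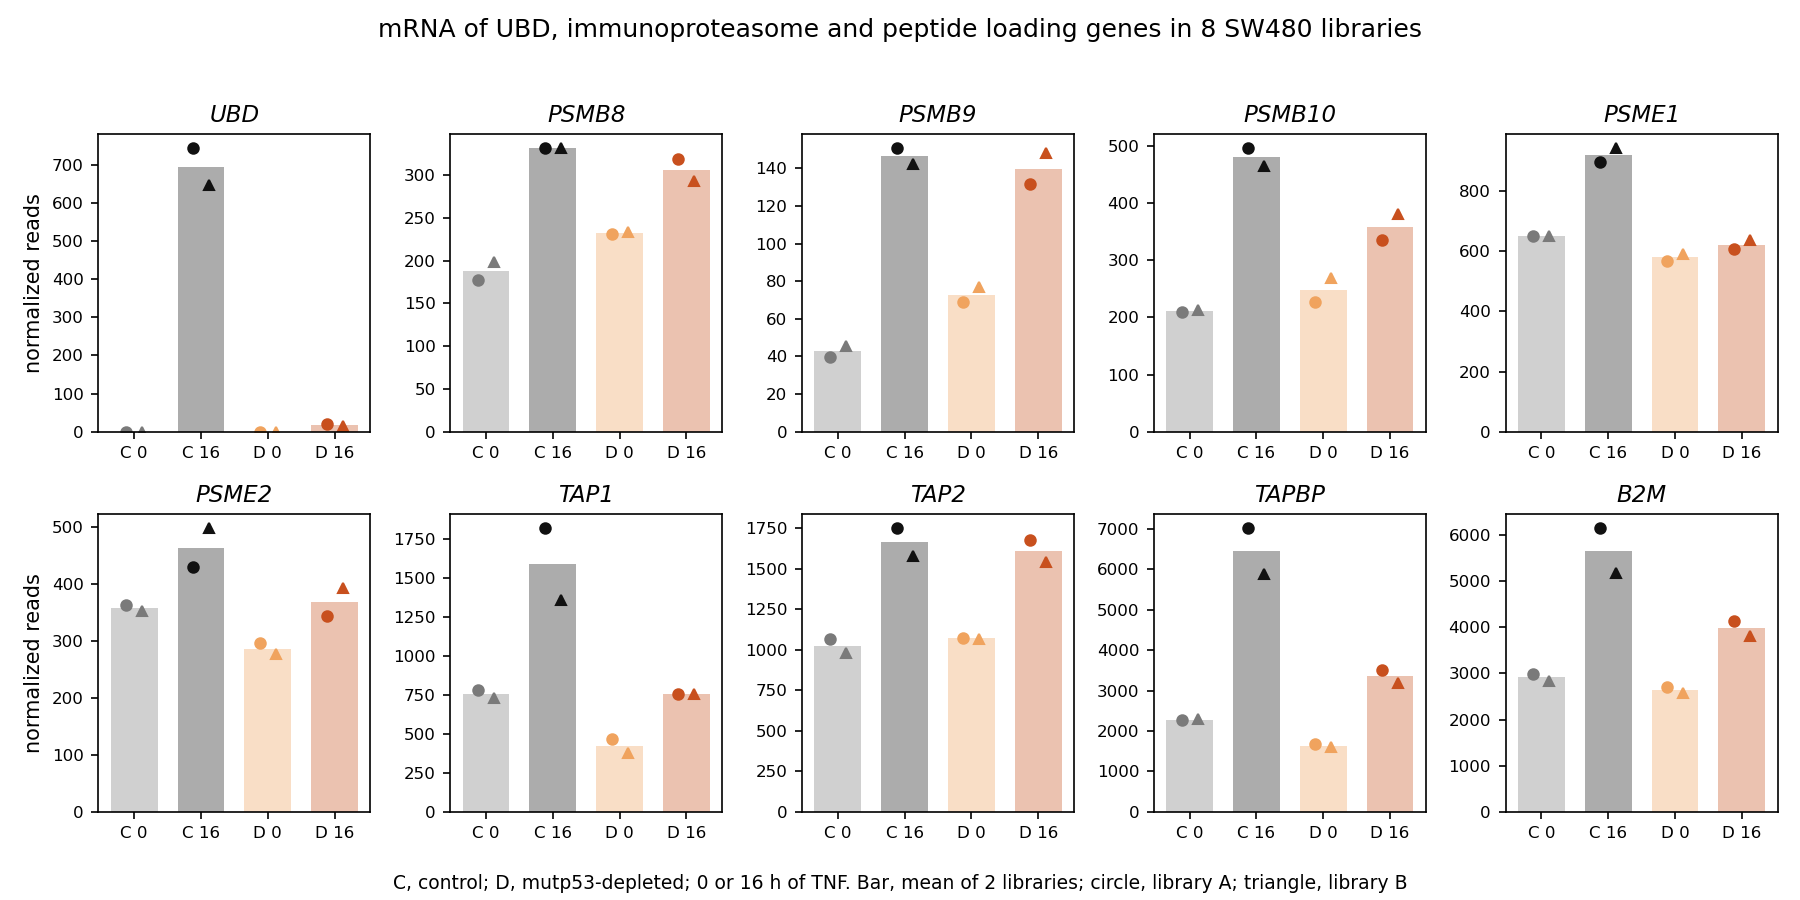
Normalized reads of the 10 members in each library, on linear axes that start at 0, for control (C) and mutp53-depleted (D) cells at 0 h and 16 h of TNF-α; bars are means of 2 libraries, circles are replicate A and triangles replicate B. UBD is at 0 in the 4 libraries of 0 h and between 16.0 and 19.3 in depleted cells at 16 h, whereas PSMB8, PSMB9 and TAP2 reach similar heights in both lines at 16 h.

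UBD changed from silent to abundant in control cells, and far less so in depleted cells. It had no read in any of the 4 libraries of 0 h, where 3 reads would have been worth between 2.01 and 4.54 normalized reads. At 16 h it had 744 and 647 normalized reads in control cells (770 and 455 reads) and 19.3 and 16.0 in mutp53-depleted cells (23 and 13 reads). The groups at 16 h did not overlap, and the depleted mean was 39.4-fold below the control mean, at a log2 change of -5.22 ± 0.43 (SE, n = 2 libraries per group; adjusted p = 1.1e-08, limma). Against a floor of 3 reads in each library of 0 h, averaged over the group, UBD was at least 207.1-fold higher after TNF-α in control cells and at least 5.77-fold higher in depleted cells (adjusted p = 1.1e-11 and 6.9e-07, limma). These 2 p-values do not count as support for a rise, since UBD entered the test only through its 16 h libraries. Depletion at 0 h gave no fold since both groups were at 0.

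The interaction of UBD was also -5.22 (SE 0.61, adjusted p = 6.7e-05, limma). With all 0 h libraries at 0 it repeats the difference at 16 h, and the count models, which treat a baseline of 0 as unknown, gave it an adjusted p of 0.26 (DESeq2) and 1.0 (edgeR quasi-likelihood test). The 16 h difference itself kept its call under each alternative run.

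Per kilobase of transcript, UBD stood at 755 and 656 normalized reads in control cells at 16 h, between PSME1 (767 and 807) above it and PSME2 (527 and 610) below it, overlapping neither. In depleted cells at 16 h UBD was last, at 19.6 and 16.3, below PSMB9 (127 and 143). B2M led in every group, with 3045 and 2896 per kilobase in control cells at 0 h and 6263 and 5273 at 16 h. In control cells at 0 h the other members ran, from high to low, TAPBP, PSME1, PSME2, TAP1, PSMB10, TAP2, PSMB8, PSMB9, of which TAP2 and PSMB8 overlapped. At 16 h TAP1 overlapped both PSME2 and PSMB10, and PSMB8 overlapped TAP2. Transcript lengths of members with several copies are the file's means over the copies.

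Among the catalytic subunits, PSMB9 rose most. PSMB9, which replaces PSMB6, had 39.9 and 45.5 normalized reads in the control line at 0 h and 151 and 142 at 16 h, and 69.0 and 76.8 in depleted cells at 0 h and 132 and 148 at 16 h. It rose 3.43-fold in control cells (log2 change 1.76 ± 0.18, SE, adjusted p = 4.8e-07, limma) and 1.92-fold in depleted cells (0.93 ± 0.18, adjusted p = 6.7e-04, limma). Depleted cells began higher, at a log2 difference of 0.76 ± 0.18 at 0 h (adjusted p = 0.0015, limma), and ended level, at -0.07 at 16 h with a 95% interval from -0.44 to 0.30. The depleted libraries at 16 h overlapped the control ones.

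PSMB8, which replaces PSMB5, followed the same order with smaller steps. It had 178 and 198 normalized reads in the control line at 0 h, 332 and 331 at 16 h, 231 and 233 in depleted cells at 0 h, and 319 and 294 at 16 h. The log2 change with TNF-α was 0.82 in control cells (adjusted p = 1.8e-05, limma) and 0.40 in depleted cells (adjusted p = 0.012, limma), the latter rising to between 0.066 and 0.11 without mutp53-depleted 0 h A, 0 h B or 16 h A. Depleted cells were higher by 0.30 at 0 h (adjusted p = 0.028, limma, but 0.091 to 0.17 without control 0 h A or either depleted 0 h library, and 0.14 with DESeq2) and differed by -0.12 at 16 h (95% interval from -0.35 to 0.12), where both depleted libraries lay just below both control libraries.

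PSMB10, which replaces PSMB7 and lies on another chromosome, passed the test as lower in depleted cells at 16 h. It had 209 and 214 normalized reads in the control line at 0 h and 496 and 465 at 16 h, a 2.27-fold rise, and 227 and 269 in depleted cells at 0 h and 335 and 381 at 16 h, a 1.45-fold rise. At 16 h both depleted libraries were below both control libraries, with a log2 difference of -0.42 ± 0.11 (SE, adjusted p = 0.0040, limma), or -0.33 with an adjusted p of 0.061 without mutp53-depleted 16 h A. The interaction was -0.65 ± 0.16 (adjusted p = 0.032, limma), and its adjusted p rose to between 0.062 and 0.22 without 1 of control 0 h A, 0 h B, 16 h A or 16 h B or mutp53-depleted 0 h B or 16 h A, the lone library of a group then being assumed to vary like the others. It was 0.12 with DESeq2 and 0.059 with no filter on low values.

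PSMB7 alone of the 3 constitutive counterparts passed a test with TNF-α. PSMB5 and PSMB6 did not pass the test with TNF-α in either line (log2 changes between -0.17 and 0.22), and PSMB7 rose by 0.27 in control cells (adjusted p = 0.015, limma). Depletion raised PSMB7 by 0.47 (0 h) and 0.38 (16 h) (adjusted p = 4.9e-05 and 4.5e-04, limma), and the median of its 50 nearest tested genes was 0.16 and 0.17 there. PSMB5 was higher by 0.21 at 0 h (adjusted p = 0.040, limma). The ratio of PSMB9 to PSMB6 per kilobase was 0.0195 and 0.0222 in control cells at 0 h, 0.0783 and 0.0683 at 16 h, 0.0325 and 0.0326 in depleted cells at 0 h, and 0.0691 and 0.0713 at 16 h. Thus the immunoproteasome transcript stayed well below its counterpart throughout. PSMB8 to PSMB5 ran from 0.187 to 0.309 over the libraries. PSMB10 to PSMB7 stood at 0.249 and 0.215 in control cells at 16 h and at 0.129 and 0.135 in depleted cells.

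**Figure D2:**
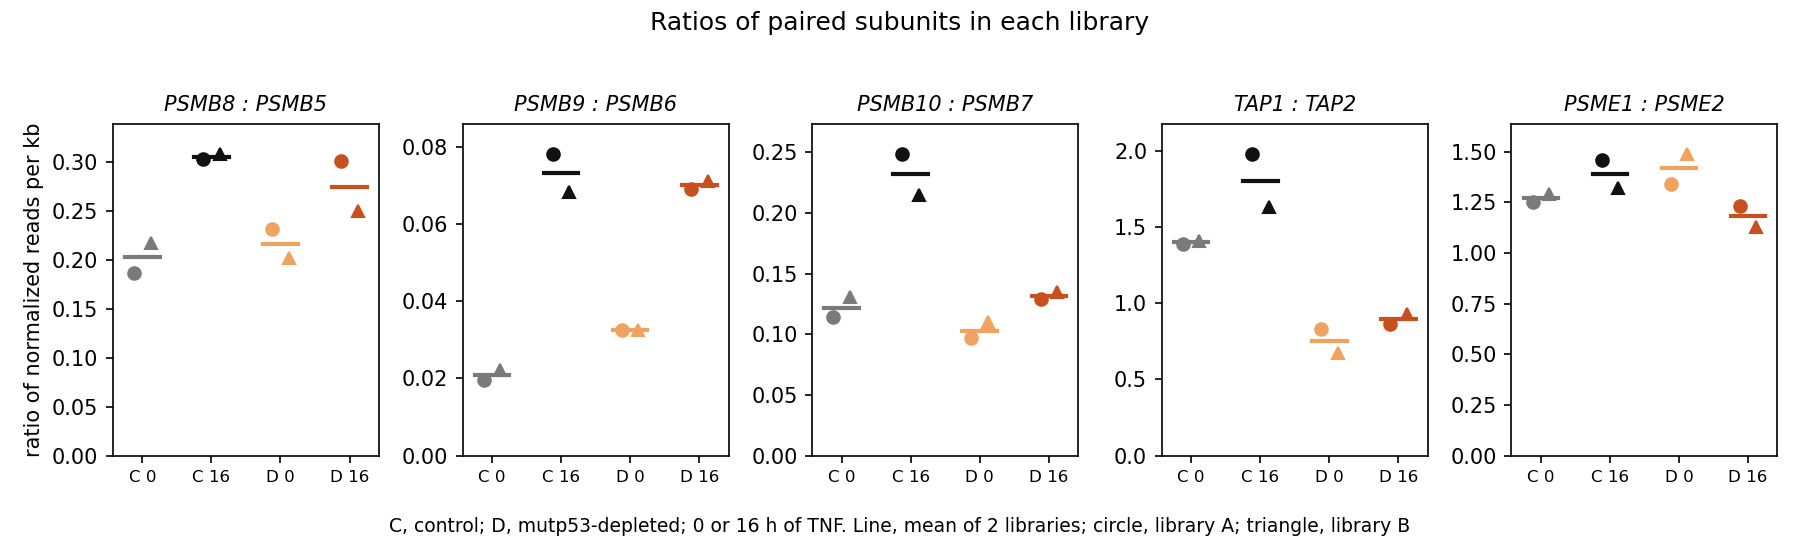
Ratios of normalized reads per kilobase between paired subunits in each library, on linear axes from 0, with the mean of 2 libraries as a line, circles for replicate A and triangles for replicate B; C is control, D is mutp53-depleted, with hours of TNF-α. PSMB9 to PSMB6 ends at like values in both lines at 16 h, while PSMB10 to PSMB7 and TAP1 to TAP2 are lower in all depleted libraries at 16 h than in the control ones.

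Both PA28 subunits rose in control cells, and in depleted cells PSME2 passed the test while PSME1 did not. PSME1 had 650 and 650 normalized reads in the control line at 0 h and 897 and 943 at 16 h, and 568 and 592 in depleted cells at 0 h and 606 and 637 at 16 h. Its log2 change with TNF-α was 0.50 (adjusted p = 9.1e-05, limma) in control cells and 0.10 in depleted cells (95% interval from -0.07 to 0.26), while the interaction of -0.40 missed the threshold (adjusted p = 0.064, limma). At 16 h it was lower in depleted cells by 0.57 on the log2 scale (adjusted p = 8.8e-06, limma), both depleted libraries lying below even the control libraries of 0 h. PSME2, whose product assembles with that of PSME1, had 363 and 353 normalized reads in the control line at 0 h, 430 and 498 at 16 h, 297 and 277 in depleted cells at 0 h, and 344 and 392 at 16 h. Its log2 change was 0.37 in control cells and 0.36 in depleted cells (adjusted p = 0.014 and 0.017, limma), and after depletion -0.32 at 0 h and -0.33 at 16 h (adjusted p = 0.017 and 0.013, limma). Each of these calls of PSME2 was lost without 1 or another library. With TNF-α its adjusted p was 0.083 and 0.14 without control 0 h B and 16 h B, and 0.050, 0.14 and 0.20 without mutp53-depleted 0 h A, 0 h B and 16 h B. After depletion it was 0.076 and 0.12 at 0 h (without control 0 h A and mutp53-depleted 0 h B) and 0.14 and 0.15 at 16 h (without control 16 h B and mutp53-depleted 16 h A). PSME1 to PSME2 per kilobase lay between 1.13 and 1.49 in all libraries. PSME3, which forms the other PA28 particle, rose with depletion, by 0.60 (0 h) and 0.65 (16 h) (adjusted p = 3.6e-07 and 1.3e-07, limma), with its 50 nearest tested genes at a median of 0.46 and 0.42.

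Both subunits of the peptide transporter rose with TNF-α in both lines, and after depletion TAP1 was lower at both times while TAP2 did not pass the test at either. TAP1 had 782 and 727 normalized reads in the control line at 0 h and 1815 and 1354 at 16 h, and 467 and 376 in depleted cells at 0 h and 758 and 752 at 16 h. The depleted libraries at 16 h thus stood at about the level of untreated control cells. TNF-α raised TAP1 2.10-fold in control cells (log2 change 1.05 ± 0.12, SE, adjusted p = 1.5e-06, limma) and 1.79-fold in depleted cells (0.85 ± 0.12, adjusted p = 2.4e-05, limma), and the interaction was -0.21 (95% interval from -0.55 to 0.14, adjusted p = 0.65, limma). Depletion lowered it by 0.85 at 0 h (adjusted p = 7.1e-06, limma) and by 1.05 at 16 h (adjusted p = 5.1e-07, limma) on the log2 scale. Control 16 h A was the highest TAP1 library by far, and without it the TNF-α rise was 0.84 and the difference at 16 h -0.84, both past the adjusted p.

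TAP2 had 1068 and 980 normalized reads in the control line at 0 h, 1750 and 1582 at 16 h, 1076 and 1065 in depleted cells at 0 h, and 1678 and 1540 at 16 h. It rose by 0.70 and 0.59 on the log2 scale in the control and depleted lines (adjusted p = 1.5e-06 and 1.6e-05, limma). Depletion moved it by 0.07 at 0 h (95% interval from -0.10 to 0.23) and by -0.05 at 16 h (from -0.21 to 0.11), intervals that leave out the change of TAP1. TAP1 to TAP2 per kilobase was 1.39 and 1.41 in control cells at 0 h and 1.98 and 1.63 at 16 h, against 0.827 and 0.672 and then 0.861 and 0.930 in depleted cells, so TAP1 was the more abundant partner in every control library and TAP2 in every depleted one.

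TAPBP and B2M, which meet the peptide at the class I molecule, rose in both lines and were lower in depleted cells at 16 h. TAPBP had 2263 and 2297 normalized reads in the control line at 0 h and 7012 and 5881 at 16 h, a 2.83-fold rise, and 1669 and 1604 in depleted cells at 0 h and 3520 and 3190 at 16 h, a 2.05-fold rise (adjusted p = 1.1e-10 and 2e-08, limma). It was lower after depletion by 0.48 at 0 h (adjusted p = 6.8e-05, limma) and by 0.94 at 16 h (adjusted p = 2e-08, limma), and the groups did not overlap at either time. Its interaction of -0.46 ± 0.11 (adjusted p = 0.033, limma) missed the threshold with an adjusted p between 0.091 and 0.18 without 1 of control 0 h A, 0 h B or 16 h A or mutp53-depleted 0 h A, 0 h B or 16 h B, at 0.052 after rescaling by the median ratio, at 0.082 with no filter and at 0.060 with a pseudocount of 0.1.

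B2M had 2987 and 2841 normalized reads in the control line at 0 h, 6144 and 5173 at 16 h, 2706 and 2575 in depleted cells at 0 h, and 4146 and 3820 at 16 h. Its log2 change with TNF-α was 0.95 in control cells and 0.59 in depleted cells (adjusted p = 4.2e-08 and 2e-05, limma). It differed by -0.14 at 0 h, which did not pass (95% interval from -0.31 to 0.03), and by -0.50 at 16 h (adjusted p = 3.8e-05, limma). The interaction was -0.36 (adjusted p = 0.11, limma), and 0.018 without control 16 h B.

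**Figure D3:**
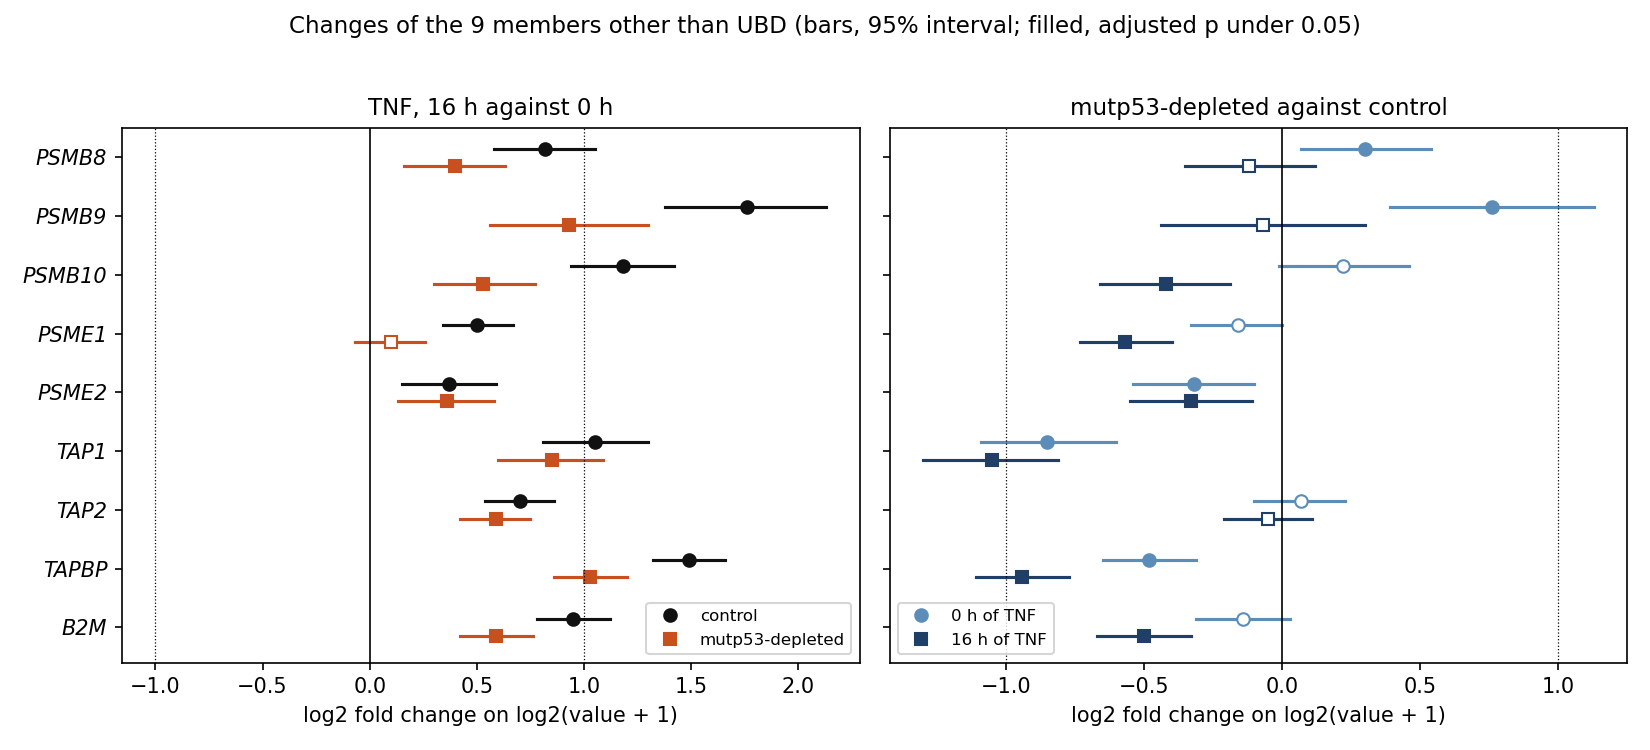
Log2 fold changes of the 9 members other than UBD, on log2(value + 1), with 95% intervals; the left panel gives TNF-α at 16 h against 0 h in control (circles) and mutp53-depleted cells (squares), the right panel depleted against control cells at 0 h (circles) and 16 h (squares), filled where the adjusted p was under 0.05, with dotted lines at 2-fold. All left-hand values lie above 0, and on the right PSMB9 (0.76 at 0 h) and TAP1 (-0.85 at 0 h) lie farthest apart.

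UBD and 5 other members lie in the MHC region of chromosome 6, and 4 of them form 1 cluster. In the coordinates of the deposited table (hg19), UBD lies at chr6:29523389-29527702, TAP2 at chr6:32793187-32806547, PSMB8 at chr6:32808494-32811816, TAP1 at chr6:32812986-32821748, all on the minus strand, PSMB9 at chr6:32821938-32827628 on the plus strand, and TAPBP at chr6:33267472-33282164 on the minus strand. TAP1 and PSMB9, read in opposite directions, are 190 bases apart in this table, and at 0 h depletion moved them in opposite directions, TAP1 by -0.85 and PSMB9 by 0.76, each past its own test. At 16 h TAP1 was lower by 1.05 while PSMB9 was level. The antisense gene PSMB8-AS1 overlaps TAP1 by 1291 bases on the other strand, but reads were counted by strand, and it had between 9.87 and 28.0 normalized reads per library. The median change of the 50 tested genes nearest to TAP1 was -0.11 at 0 h and -0.19 at 16 h, and with that median taken off TAP1 stood at -0.86 at 16 h. From UBD to TAPBP the table lists 187 genes, 184 of them with more than 1 copy, since hg19 holds this region several times. The members there have 5 to 8 copies each (UBD 7, TAPBP 5, the cluster 8), against 1 copy for 96.8% of all genes listed. The rule by which reads on these copies were assigned is not given in the sources used here, so their levels are less certain than those of PSMB10 (chr16:67968407-67970780), PSME1 (chr14:24605367-24608176), PSME2 (chr14:24612574-24615855) and B2M (chr15:45003685-45010357), which have 1 copy.

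**Figure D4:**
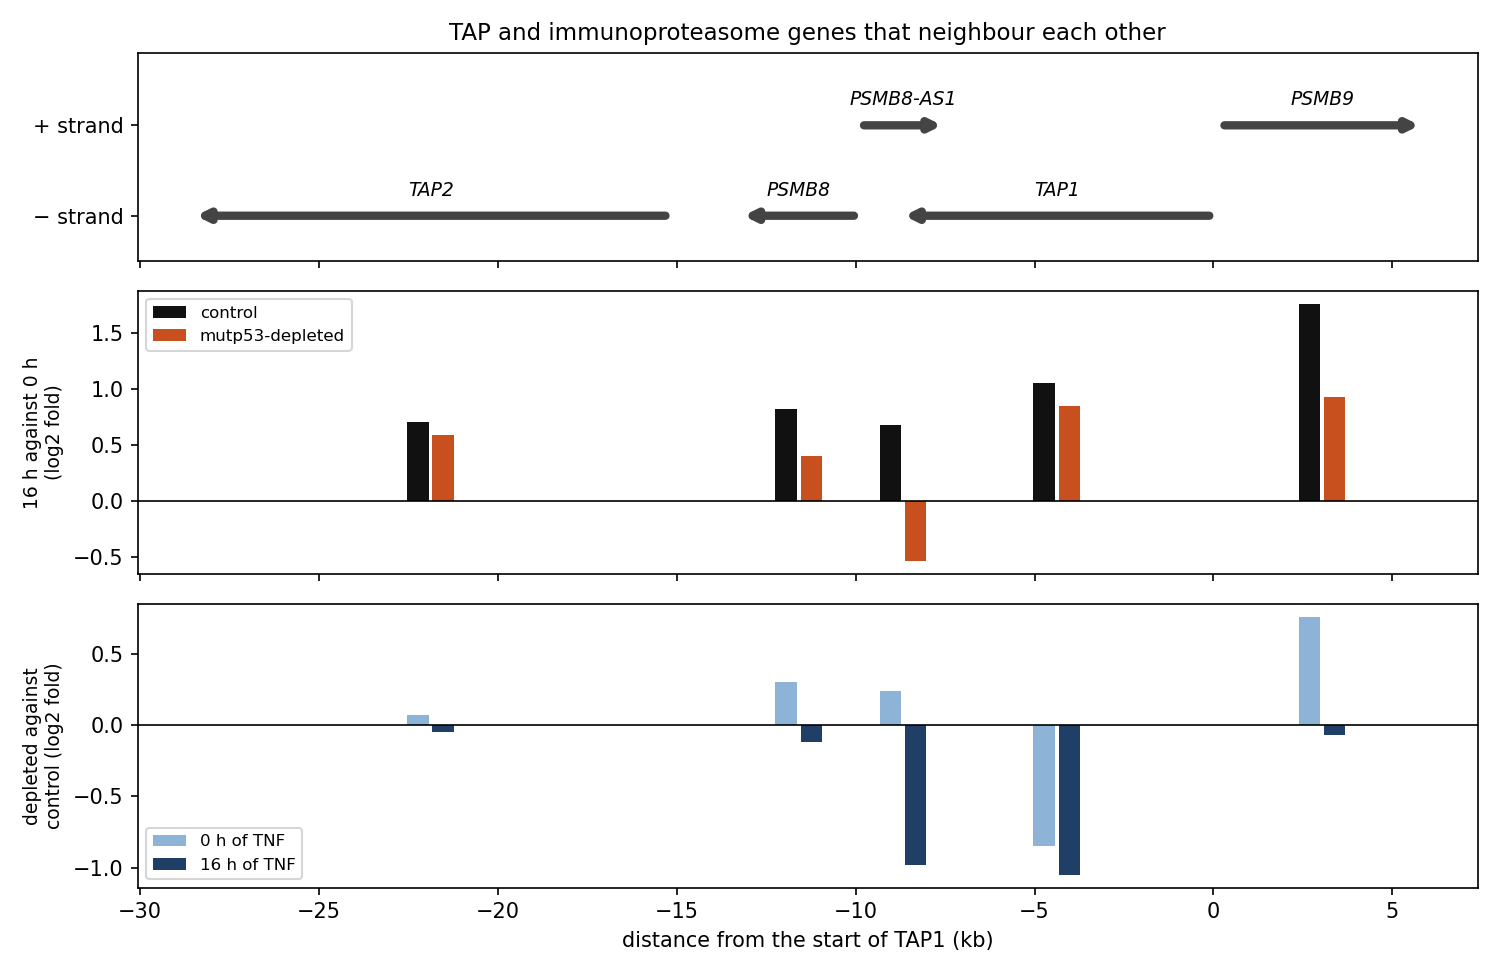
Genes from TAP2 to PSMB9 drawn to scale as arrows in their direction of transcription (top; x axis, distance from the start of TAP1 in kilobases), with the log2 fold change of each gene with TNF-α (middle; black control, orange mutp53-depleted) and after mutp53 depletion (bottom; light 0 h, dark 16 h). TAP1 and PSMB9 point away from each other and go in opposite directions at 0 h, -0.85 and 0.76; PSMB8-AS1 passed the adjusted p only for depletion at 16 h (-0.98, adjusted p = 0.044, limma).

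The class I heavy chains, which pair with B2M, rose with TNF-α and, like TAP1 and TAPBP, were lower after depletion at both times. Of 6 heavy chain genes 5 rose with TNF-α in control cells (all genes 11.1%), and all 6 rose in depleted cells (all genes 9.8%). HLA-B, the most responsive, went from a mean of 943.0 to 2769 normalized reads in control cells (log2 change 1.55, adjusted p = 1.6e-09, limma) and from 576.7 to 1437 in depleted cells (1.32, adjusted p = 1.8e-08, limma). All 6 were lower after depletion at both times, with medians of -0.89 at 0 h and -0.94 at 16 h, against 0.03 and -0.01 over all genes, of which 25.2% and 26.5% were lower. No heavy chain passed the interaction test. These genes are near-identical to each other in places and have several copies in the table, so their split is uncertain.

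Among 6 genes for peptide trimming and for chaperones of loading, ERAP1, an aminopeptidase of the endoplasmic reticulum, rose by 0.85 in control and 0.68 in depleted cells (adjusted p = 3.4e-06 and 4.9e-05, limma), and TAPBPL, a peptide editor related to tapasin, by 1.26 and 0.84 (adjusted p = 1.4e-06 and 1.7e-04, limma). CALR, the chaperone calreticulin, rose by 0.32 in depleted cells (adjusted p = 0.011, limma). Depletion lowered CALR, CANX, PDIA3 and ERAP1 at both times, by 0.22 to 0.73 on the log2 scale. CANX stood at -0.32 at 0 h and -0.22 at 16 h, beside nearest tested genes with medians of -0.28 and -0.29. These medians were -0.16 and -0.11 for CALR, 0.01 and -0.13 for PDIA3, and 0.07 and 0.1 for ERAP1. TAPBPL was higher at 0 h by 0.62 (adjusted p = 0.0011, limma), where the 50 nearest tested genes had a median of 0.94.

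The parts of the proteasome common to both kinds of particle had a median log2 change with TNF-α of 0.15 in control cells and 0.03 in depleted cells. Of 11 other 20S subunits 3 rose with TNF-α in control cells, PSMA5, PSMA6 and PSMB2, by 0.24 to 0.41 (all genes 11.1%), and PSMA5 rose in depleted cells by 0.26 (all genes 9.8%). After depletion 5 were higher and 1 lower at 0 h, and 2 higher and 1 lower at 16 h, where 27.3% and 25.2% of all genes (0 h) and 24.9% and 26.5% (16 h) were higher and lower. The lower one was PSMA2 (-0.72 and -0.89), whose 50 nearest tested genes had medians of -0.83 at both times. Of 8 assembly factors and other regulators PSMG3, PSME3 and PSME4 rose in control cells by 0.27 to 0.32 (all genes 11.1%), and PSME3 rose in depleted cells (all genes 9.8%). At each time 4 were higher after depletion (POMP, PSME3, PSME4 and PSMF1) and 2 lower (PSMG1 and PSMG3), the latter count being near the share over all genes given above. PSMG3 fell by 1.03 and 1.12 on the log2 scale, with neighbours at -1.05 and -1.02. PSMG1 stood at -0.37 and -0.4, with neighbours at -0.52 and -0.45. The medians of the members in this comparison stood at -0.07 at 0 h and -0.46 at 16 h.

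Of 10 transcription regulators known to act on these genes 7 rose with TNF-α in control cells, 5 of them at least 2-fold (RELB, NFKB2, IRF1, NFKB1 and IRF2; all genes 11.1% and 2.97%), and in depleted cells 5 rose (all genes 9.8%) and STAT2 fell (-0.43). After depletion 6 were higher at 0 h and none lower, and 1 was higher and 4 lower at 16 h (RELB, NFKB2, NLRC5 and STAT2), beside 27.3% of all genes higher and 25.2% lower at 0 h and 24.9% and 26.5% at 16 h. RELB and NFKB2, of the alternative NFκB pathway, had the largest rises of the list, RELB from 130 and 141 normalized reads to 1387 and 1268 in control cells and from 105 and 134 to 662 and 597 in depleted cells, NFKB2 by 2.55 and 1.62 on the log2 scale. IRF1, which binds IRF elements, rose by 1.59 in control cells (adjusted p = 4e-10, limma) and 1.06 in depleted cells (adjusted p = 1.2e-07, limma) and reached 1100 and 989 normalized reads in control cells and 1050 and 1047 in depleted cells at 16 h, having begun higher in depleted cells by 0.53 (adjusted p = 1.1e-04, limma). NLRC5, the transactivator of class I genes, had 47.2 and 65.1 normalized reads in the control line at 0 h and 95.7 and 111 at 16 h, against 80.4 and 85.0 and then 71.3 and 71.6 in depleted cells. The rise of NLRC5 passed in control cells (0.88, adjusted p = 0.0030, limma), and its interaction was -1.09 (adjusted p = 0.046, limma). In all, 7 of these 10 regulators had an interaction below 0 that passed, NLRC5, IRF1, IRF2, STAT2, NFKB1, NFKB2 and RELB, against 2.21% of all genes. Those of IRF1, NFKB1 and STAT2 lay, like that of NLRC5, near the threshold (adjusted p = 0.038, 0.034 and 0.031, limma). IRF2, NFKB2 and RELB lay farther from it (adjusted p = 0.0051, 6.7e-05 and 0.0052, limma). The alternative runs were examined for the members only, so how far these calls depend on single libraries or methods was not tested. RELA rose in both lines by 0.49 and 0.42 and rose with depletion, by 0.34 (0 h) and 0.26 (16 h). RELB was lower in depleted cells at 16 h by 1.07 (adjusted p = 5.2e-07, limma), beside 50 nearest genes at -0.48. IRF9 passed no test.

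Genes for interferons, the best known inducers of these members, were at or near 0. None of 8 interferon genes had enough reads to be tested; IFNG, IFNB1, IFNA1, IFNL2, IFNL3 and IFNK had no read in any library, IFNL1 had 1 read in control 16 h A, and IFNE had at most 6 reads in a library. A count of 0 allows up to 3 reads per library, which were worth at most 4.54 normalized reads; this covers counting error only.

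Of 6 genes for FAT10 conjugation and binding, SQSTM1, which encodes the autophagy receptor p62, was the one that rose (all genes 11.1% in control and 9.8% in depleted cells). It went from 3625 and 3866 to 12007 and 13049 normalized reads in control cells and from 6447 and 6439 to 14464 and 14393 in depleted cells. Its log2 change was 1.74 and 1.16 (adjusted p = 1.9e-12 and 8.2e-10, limma), with an interaction of -0.58 (adjusted p = 0.0023, limma). At 16 h it was higher in depleted cells by 0.21 (adjusted p = 0.020, limma), where UBD was lower. The E2 enzyme UBE2Z rose with depletion, by 0.31 (0 h) and 0.28 (16 h), beside neighbours at 0.54 and 0.53, NUB1 lower at 16 h (-0.44, neighbours -1.05) and the deacetylase HDAC6 lower at 0 h (-0.24) and 16 h (-0.57). HDAC6 also fell with TNF-α, by 0.48 in control and 0.80 in depleted cells, and NUB1 by 0.37 in depleted cells. UBA6, the E1 enzyme, and MAD2L1 passed no test.

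**Figure D5:**
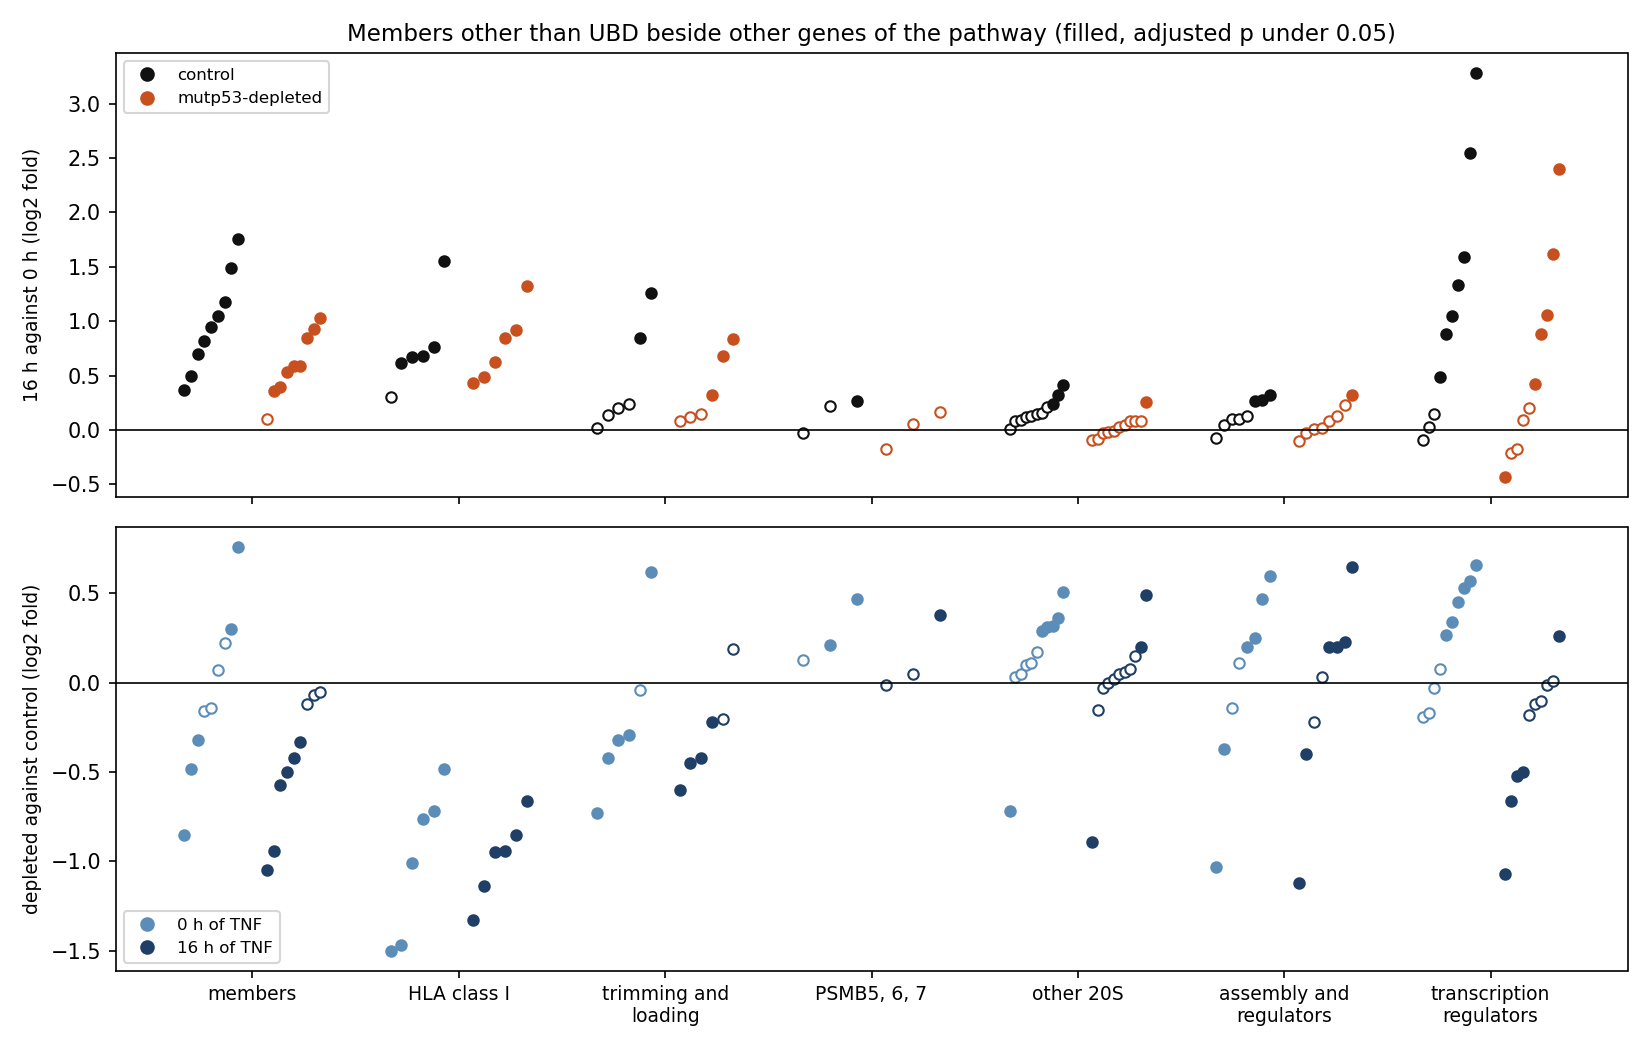
Log2 fold changes of the members other than UBD and of 6 other gene groups, each dot a gene, filled where the adjusted p was under 0.05; top, TNF-α at 16 h against 0 h in control (black) and mutp53-depleted (orange) cells; bottom, depleted against control cells at 0 h (light) and 16 h (dark). With TNF-α the group of other 20S subunits, without PSMB5 to PSMB10, stays between -0.09 and 0.41, while RELB reaches 3.28 in control cells. After depletion all HLA class I genes lie below 0.

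The genes whose log2 levels over the 8 libraries ran most like UBD, among 4964 genes with an SD of at least 0.5, were CMIP (Pearson r = 0.996), the caveolin gene CAV1 (0.993), the chemokine gene CCL7 (0.993), the transcription factor gene FOXO1 (0.991) and the chemokine gene CCL20 (0.988). CCL7 had 139 and 82.5 normalized reads in the control line at 16 h and 10.9 and 3.70 in depleted cells, and like UBD had none at 0 h. Since 4 of the 8 values of UBD are 0, these r values describe mainly its 16 h levels. The genes most like TAP1 were GRINA (0.989), HLA-H (0.987, a class I pseudogene with 8 copies), LRRN4 (0.987), MAPK11 (0.986) and ZMIZ2 (0.982). ZMIZ2 had 4408 and 4248 normalized reads in the control line at 16 h and 1781 and 1741 in depleted cells at 16 h. The 8 libraries share 4 groups and are not 8 independent points, so no p is given.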

How the data were processed

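The signal values the authors deposited are mRNA-seq reads on the exons of RefSeq genes (STAR, HOMER with the strand of dUTP libraries, 50-base single-end reads), each library scaled by 1 factor to equal totals. The header and coordinates give hg19, whereas the submitters' processing notes name hg38. The deposited fold and p-value columns of the authors' edgeR comparisons were not used. Letters A and B come from the column names. Dividing by the value of 1 read gave whole reads for 100.0% of values (within 0.0051), and replicates differed beyond sampling noise (chi-square per gene 2.07 to 3.93).

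Values were compared with limma 3.58.1 (R 4.3.3; eBayes with trend) as log2(value + 1) for genes whose mean reached 2.5, in 1 model of 4 group means, and p-values were adjusted by Benjamini-Hochberg over 14800 genes; the script was tested on simulated data. Members passing adjusted p under 0.05 were counted, and again at 2-fold or more. Alternatives were median-ratio rescaling, other filters (none; a mean of 10), pseudocounts of 0.1 and 5, a replicate block, edgeR 4.0.16 (exact and quasi-likelihood) and DESeq2 1.42.0 on recovered reads, each library left out, and subtraction of the median of the 50 nearest tested genes. The members and gene lists were chosen with earlier results of these data known. Text names all members, listed genes that passed a test or are PSMB5, PSMB6 or PSMB7, the 5 genes most like UBD and TAP1, and nearest neighbours. Listed genes that passed no test, and zero-read genes, were named after their values were seen. Sequences are from RefSeq (GRCh38.p14), and hg19 positions were not converted. The level of the gene targeted by the hairpin and values of some single listed genes are not reported here.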

Additional observations from a re-analysis of the deposited data

Results flagged for a closer look

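The TNF-α response differed between the control and the mutp53-depleted line, by a test of the interaction, for 3 members. The interaction on the log2 scale was -5.22 for UBD, -0.65 for PSMB10 and -0.46 for TAPBP (adjusted p = 6.7e-05, 0.032 and 0.033, limma). UBD was at 0 in both lines at 0 h, so its value is also its difference at 16 h, and its adjusted p was 0.26 with DESeq2 and 1.0 with the edgeR quasi-likelihood test. The call of PSMB10 was lost with DESeq2 (adjusted p = 0.12) and with no filter on low values (adjusted p = 0.059, limma). That of TAPBP was lost after median-ratio rescaling, with no filter and with a pseudocount of 0.1 (adjusted p = 0.052, 0.082 and 0.06, limma). Both calls also depended on single libraries, as given above.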

How the results depend on the processing

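Of 860 values of single genes under the alternatives, 812 kept their direction and their call (adjusted p and 2-fold, or adjusted p alone for the interaction), 23 lost it, 14 gained it and 11 turned sign. By adjusted p alone 17 values outside the interaction crossed to over 0.05, all of PSMB8, PSME2 or PSMB10, and 3 to under it (PSME1 at 0 h with both edgeR tests, PSMB10 at 0 h without mutp53-depleted 0 h A). The number of members passing it at 0 h after depletion, 5, ran from 3 to 6. Those that turned sign, none of which had passed the test, were PSME2 in the interaction (0.01 after median-ratio rescaling, and from -0.12 to 0.09 without 1 library) and 3 genes for depletion at 16 h: TAP2 (from -0.12 to 0.02 without 1 library, 0.14 with the neighbours' median taken off), PSMB9 (from -0.15 to 0.02, and 0.12) and PSMB8 (0.09 with neighbours). The number of members past adjusted p and 2-fold stayed within 1.5 times of the main count for TNF-α in both lines under each alternative run. For depletion at 0 h it ran from 0 to 1, and at 16 h from 1 to 3, when 1 library was left out, and it was 1 at 16 h with the neighbours' median taken off. For the interaction 3 members became 1 with DESeq2 and 1 with no filter, and 1 to 3 when 1 library was left out. The exact test of edgeR compares only pairs of groups and was not run for the interaction. The letters did not pair the libraries by the correlation of their deviations, which ran from -0.077 to 0.216 between groups; with the letter as a replicate block 5 members passed the interaction, PSME1 (adjusted p = 0.042, limma) and B2M (adjusted p = 0.029, limma) being added. With 2 libraries per group, p-values rest on a spread shared over all 4 groups.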
